A study of Mus musculus with 2 samples.

Results

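The genes described here are the ligands and receptors of the tumour necrosis factor (TNF) superfamily, followed in RNA from sorted mouse bone marrow niche cells after transplantation. They were chosen by name and biotype: every protein-coding row of the deposited table whose symbol begins with Tnfsf or Tnfrsf and a digit, together with Tnf, Lta, Ltb, Ltbr, Fas, Fasl, Cd27, Cd40, Cd40lg, Cd70, Ngfr and Eda2r. This gave 43 genes of 22046 protein-coding genes, 17 of them ligands and 26 receptors. The rule reads names and biotypes, not expression values.

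Both groups of mice were female CB6F1 hybrids (CD45.2+), irradiated with 4.0 Gy in each of 2 sessions and given marrow cells of B6.SJL mice (CD45.1+) 4 hours afterwards. The BMT group received marrow alone. The aGVHD_V group also received spleen cells of female C57BL/6 mice, which induce acute graft-versus-host disease, an attack of donor T cells on the tissues of the recipient. The sources used here do not say what the V denotes, so any further treatment it stands for cannot be told apart from the disease. Ages and the number of mice behind a library are likewise not given. Niche cells were obtained by flow sorting of living cells (Calcein AM and DAPI) that lacked CD45, lineage antigens and CD71. Each group is represented by 1 library, so no difference has a replicate check, no test between the groups was possible and no p-value is given. The question addressed is how the TNF superfamily differs between niche cell preparations of mice with and without the disease.

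Ligands of this family are mostly trimeric proteins on the surface of immune cells, from which some are cut off by proteases, and their receptors pass the signal to adapter proteins inside the cell. Receptors with a death domain (TNF receptor 1, Fas, the TRAIL receptor) can start cell death through FADD and caspase 8, while those that bind TRAF proteins (TNF receptor 2, CD40, RANK) mainly activate NF-kB. In bone marrow the family is known for RANK ligand, made by cells of the bone-forming and stromal lineage and needed for osteoclasts, for BAFF, which sustains B cells, and for TNF and FAS ligand, which donor T cells use against host tissue in graft-versus-host disease.

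Levels are given as FPKM, fragments relative to gene length and to a library size scaled by the authors, which allows genes of different length to be compared. Wherever values stand in pairs, that of BMT comes first and that of aGVHD_V second. Differences are log2(FPKM + 1) of aGVHD_V with that of BMT subtracted, a scale that understates the difference of low genes. Genes reaching an FPKM of 1 in either library count as measured, and a difference of at least 1 on this scale, in either direction, counts as 2-fold. Reads per gene were worked back from FPKM and gene length, and their totals over genes were 10869191 and 11299834 reads. Genes were most often detected with about 14 and about 44 reads, the modal read numbers. Counting intervals of folds (95%) were therefore computed on reads divided by these modal numbers. They cover counting error only and contain no variation between mice. A gene with fewer than 3 such counts (42 reads for BMT, 132 for aGVHD_V) was treated as under the floor. Where a library had 0 reads, its floor took the place of the value, and the fold is then a lower bound, given only where the other level exceeds that floor.

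Markers of several cell types differed between the libraries, as the plot of marker sums shows. All 12 mesenchymal stromal cell markers were lower with aGVHD_V by 2-fold or more, at a summed FPKM of 778 and 45.4. Cxcl12, the chemokine of the stromal niche, had an FPKM of 346 and 14.6, and Lepr, the leptin receptor, had 2521 and 0 reads. B cell markers summed to 84.7 and 3.05, with 7 of 10 at 0 reads under aGVHD_V, and endothelial markers to 90.6 and 19.6. Erythroid markers summed to 44771 and 165633, where the summed FPKM of all genes was 340171 and 507958. Despite the sort, Ptprc, which encodes CD45, stood at 9.28 and 7.85, Tfrc, which encodes CD71, at 160 and 269, and the neutrophil gene S100a9 at 6959 and 9474. The defining markers of stromal cells were thus lower in the aGVHD_V library, where Lepr had 0 reads and Cxcl12 still had 1271, and blood cell RNA was present in both. Fewer cells of a type and less RNA per cell cannot be told apart in such bulk libraries.

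**Figure D1:**
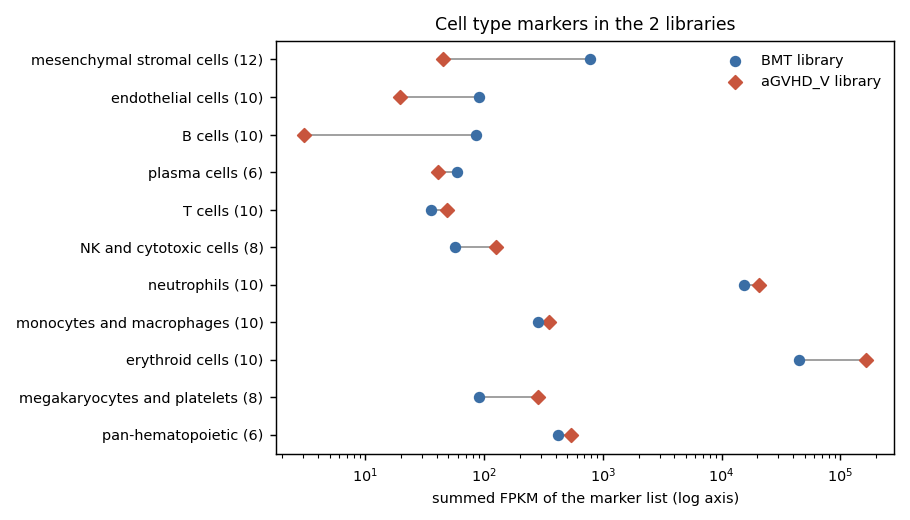
Summed FPKM of each marker list (number of genes in brackets) in the BMT library (blue circles) and the aGVHD_V library (red diamonds), on a log axis. Stromal, endothelial and B cell sums were lower in the aGVHD_V library, erythroid and megakaryocyte sums were higher, and monocyte sums lay close together at 283 and 349.

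The promoters of the members on which the results turn are shown before their values, because Ltb, Tnf and Lta lie side by side within 10913 bases of chromosome 17, Tnfrsf14 was the most abundant member and Tnfsf11 had the largest difference. The 250 bases before the start site of RefSeq (GRCm38.p6) are printed from 5′ to 3′ on the strand of the gene, and capitals mark matches to the NF-kB consensus or to the STAT motif TTCNNNGAA on either strand.
Ltb, chr17:35194257-35194506, strand plus: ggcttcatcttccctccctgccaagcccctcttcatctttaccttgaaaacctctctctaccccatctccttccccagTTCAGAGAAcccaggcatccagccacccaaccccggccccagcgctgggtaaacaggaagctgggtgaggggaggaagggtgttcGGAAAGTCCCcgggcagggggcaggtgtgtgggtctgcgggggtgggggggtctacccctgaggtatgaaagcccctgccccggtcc
Tnf, chr17:35202008-35202257, strand minus: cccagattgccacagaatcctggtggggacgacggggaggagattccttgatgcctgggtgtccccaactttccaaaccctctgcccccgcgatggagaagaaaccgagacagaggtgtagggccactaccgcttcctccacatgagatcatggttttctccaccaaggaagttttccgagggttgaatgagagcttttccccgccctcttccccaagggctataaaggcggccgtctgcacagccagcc
Lta, chr17:35205352-35205601, strand minus: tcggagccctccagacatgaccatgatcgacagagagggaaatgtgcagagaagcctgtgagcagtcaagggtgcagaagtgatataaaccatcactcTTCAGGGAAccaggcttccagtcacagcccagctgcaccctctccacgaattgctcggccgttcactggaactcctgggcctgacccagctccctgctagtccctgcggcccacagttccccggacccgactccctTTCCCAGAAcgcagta
Tnfrsf14, chr4:154928078-154928327, strand minus: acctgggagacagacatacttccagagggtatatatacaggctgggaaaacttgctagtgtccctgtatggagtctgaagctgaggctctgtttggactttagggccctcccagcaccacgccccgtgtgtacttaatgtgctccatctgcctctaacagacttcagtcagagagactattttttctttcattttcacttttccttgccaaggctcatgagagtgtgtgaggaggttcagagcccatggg
Tnfsf11, chr14:78308044-78308293, strand minus: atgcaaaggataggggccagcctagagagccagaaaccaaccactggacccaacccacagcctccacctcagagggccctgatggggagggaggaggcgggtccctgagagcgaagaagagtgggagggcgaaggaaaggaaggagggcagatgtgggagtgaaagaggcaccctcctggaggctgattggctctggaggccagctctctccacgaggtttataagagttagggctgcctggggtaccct

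Of the 43 members 33 had a promoter window of 300 bases (250 before and 50 after the start site) in the RefSeq table, 37 windows in all. The NF-kB consensus was found in 4 of these 37 windows (10.8%), those of Ltb, Tnfrsf8, Tnfrsf9 and Tnfrsf25, against 8.46% of all 32817 windows. The STAT motif was found in 9 of the 37 (24.3%), each of a different member, against 8.29% of all windows. Ltb held both, the NF-kB match beginning 87 bases before its start site and the STAT match 172 bases before it. Lta held 2 STAT matches, and the windows of Tnf, Tnfrsf14 and Tnfsf11 held neither motif. The RefSeq start of Tnfrsf14 lies 486 bases from the gene start of the deposited table. These matches describe the sequence and say nothing about binding.

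Reads were found for 36 of the 43 members in BMT and for 27 in aGVHD_V. Of the 36 members with reads in the BMT library 12 (33.3%) had none in the aGVHD_V library, where the share over all protein-coding genes was 19.2%. Of the 27 with reads in the aGVHD_V library 3 (11.1%) had none in the BMT library, against 2.17% over all protein-coding genes. The floor was reached by 24 members in BMT and by 8 in aGVHD_V, and these 8 reached it in both. It lay at 42 reads in BMT and 132 in aGVHD_V, so it was harder to reach in aGVHD_V for every gene. Of all 22046 protein-coding genes 7720 were at or above it in both libraries.

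The filter passed 31 members: 15 in both libraries, 9 through the BMT library alone and 7 through the aGVHD_V library alone, so that the last 16 had a level under 1 on one side by construction. Among the 31 measured members 9 were lower by 2-fold or more under aGVHD_V (29.0%, against a background of 16.3% of 11175 measured protein-coding genes). A further 8 were at least 2-fold higher (25.8%, against 5.59%), and 14 lay within 2-fold (background 78.1%). Scaling each library to an equal FPKM sum left 37 members measured, of which 15 (40.5%) were lower and 5 (13.5%) higher, against 35.9% and 3.43% of all genes. With genes without reads set at the floor, 3 of 31 were lower (9.68%, against 7.77% of all genes) and 6 higher (19.4%, against 4.47%). Of the 22 measured members whose higher FPKM was under 10, 8 were lower (background at that level 24.1%) and 5 higher (background 6.38%). Of the 9 with a higher FPKM of 10 or more, 1 was lower (background 6.6%) and 3 were higher (background 4.61%). The 12 members outside the filter could not differ by 2-fold on this scale. Counting error limits these calls: of the 17 members outside 2-fold 8 had no reads in 1 library, and none of the 9 with reads in both had a counting interval of the fold that excluded 1. Of the 8 without reads on one side, Tnfsf11 and Tnfrsf19 were above the floor of both libraries, so that a bound of the fold can be given. Cd40lg exceeded the floor of BMT, where it had no reads, but not that of aGVHD_V.

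The median difference of the measured members was 0.27, against -0.07 over all measured protein-coding genes, but it was -0.55 when each library was scaled to an equal FPKM sum (all genes -0.67) and -0.027 with library sizes of all recovered reads (all genes -0.29). It was 0.24 when centred on the median log2 ratio of genes measured in both libraries (all genes -0.095). Upper-quartile scaling gave 0.30 (all genes -0.040). Leaving hemoglobin, mitochondrial and ribosomal protein genes out of the library sizes gave 0.18 (all genes -0.15). The members' median thus changed sign under some of the scalings and kept it under others. It lay above that of all genes under each of these scalings. A scaling moves members and all genes nearly alike, so this repeated order is no separate check. Without rescaling, the interval of the members' median ran from -0.645 to 0.854 and contained the all-gene median of -0.07. Intervals of medians describe the spread over genes only. They carry neither counting error nor variation between mice, so they cannot judge the difference between the groups. Ligands had a median of 1.03 over 11 measured genes (interval of the median -2.05 to 1.57). Of these, 6 were at least 2-fold higher and 4 at least 2-fold lower, and with equal sums the ligand median was -0.42. With genes without reads at the floor, the ligand median was 0.26, 4 of the 11 were higher, none was lower and 7 lay within 2-fold. Receptors had a median of 0.09 over 20 measured genes, with 2 higher and 5 lower; it was -0.55 with equal sums, -0.14 with all recovered reads as library size and -0.11 without the filter, where all genes had -0.67, -0.29 and -0.14. Of 11 measured ligands 1, Tnfsf13b, lay within 2-fold, and of 20 receptors 13 did. With a pseudocount of 0.1, which shrinks low genes less, 10 of the 20 receptors lay within 2-fold, 5 were higher and 5 lower. The measured ligands thus held genes that differed in opposite directions, and 6 of the 10 outside 2-fold had no reads in 1 library.

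**Figure D2:**
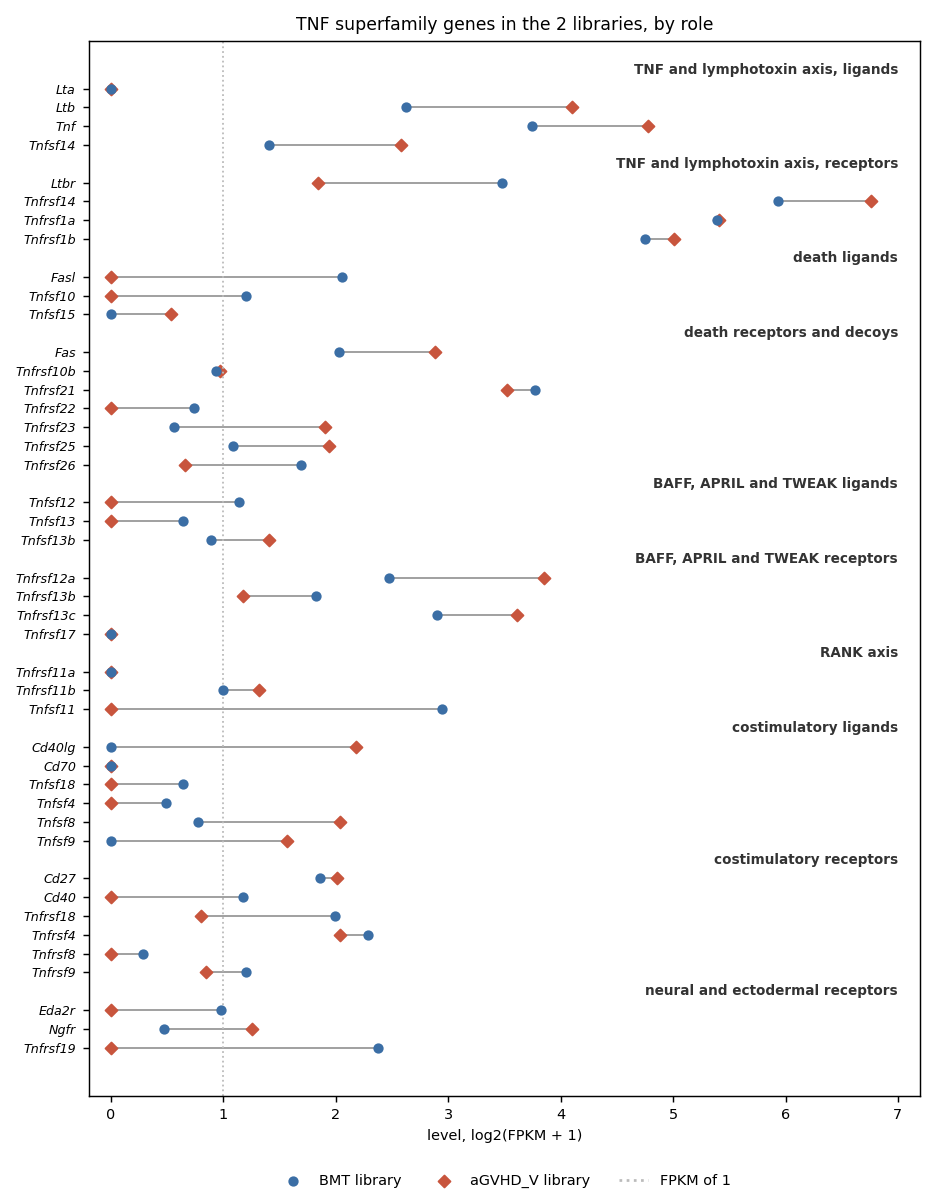
Level of each of the 43 members as log2(FPKM + 1) in the BMT library (blue circles) and the aGVHD_V library (red diamonds), grouped by role, with a dotted line at an FPKM of 1. Tnfrsf14, Tnfrsf1a and Tnfrsf1b stand to the right of the other members in both libraries, and most ligands lie near or left of the dotted line in at least 1 library.

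The summed FPKM of the family was 225 and 301. Per 1000000 of the summed FPKM of each library this was 661 and 593, so that the order of the libraries depended on the scaling. Receptors took 190 and 243 of it and ligands 34.7 and 58.3. The 3 most abundant members, Tnfrsf14, Tnfrsf1a and Tnfrsf1b, held the same order in both libraries and together made up 56.3% and 59.7% of the family sum. Among all protein-coding genes by FPKM they ranked 737, 1159 and 1964 in BMT and 429, 1265 and 1693 in aGVHD_V.

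Among the ligands of the TNF and lymphotoxin axis, Tnf, Ltb and Tnfsf14 were each higher by 2-fold or more under aGVHD_V on the log2(FPKM + 1) scale, and Lta had no reads. Tnf, the cytokine that names the family (ENSMUSG00000024401, chromosome 17, 35199381 to 35202007, minus strand), had an FPKM of 12.4 (247 reads) and 26.5 (463 reads). This was 2.13-fold higher with a counting interval of 0.893 to 4.83, which included no difference. Ltb, lymphotoxin beta (chromosome 17, 35194439 to 35196320, plus strand), anchors lymphotoxin alpha to the membrane. It had an FPKM of 5.17 (95 reads) and 16.1 (261 reads), 3.12-fold higher with an interval of 0.856 to 11.0. Both ligands were thus higher on few modal counts, and under equal FPKM sums the folds of Tnf and Ltb were 1.43 and 2.09. Tnfsf14, which encodes LIGHT, a ligand of HVEM and of the lymphotoxin beta receptor, stood at 1.65 (37 reads) and 4.98 (98 reads), under the floor in both libraries. Of the 3 ligands with reads, Tnf and Ltb therefore lay above the floor in both libraries.

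The 3 most abundant members of the family were receptors of this axis. Tnfrsf14 encodes HVEM, the herpesvirus entry mediator, which binds LIGHT on one side and the inhibitory receptor BTLA on the other. Its FPKM was 60.1 (1048 reads) and 107 (1643 reads), 1.78-fold higher with a counting interval of 1.17 to 2.68. It was the only one of the 8 members at or above the floor in both libraries whose interval excluded 1; over all protein-coding genes at that level 9.18% were higher and 3.46% lower in this sense. The fold was 1.19 (interval 0.784 to 1.79) under equal FPKM sums and 1.51 (0.990 to 2.26) with library sizes of all recovered reads, so that the interval included 1 under both scalings.

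Tnfrsf1a, TNF receptor 1, the death domain receptor present on most cells, was at 40.8 (1283 reads) and 41.6 (1148 reads), a ratio of 1.02 with an interval of 0.632 to 1.59. Tnfrsf1b, TNF receptor 2, a TRAF-binding receptor mainly of blood and endothelial cells, was at 25.8 (1196 reads) and 31.2 (1272 reads), a ratio of 1.21 with an interval of 0.765 to 1.86. Both receptors lay within 2-fold, with at least 1148 reads in either library. Ltbr, the lymphotoxin beta receptor of stromal and myeloid cells, was at 10.2 (290 reads) and 2.59 (65 reads), with a counting interval of 0.807 to 59.5 for the fold, which included no difference. It was the 1 member with an FPKM of 10 or more that was at least 2-fold lower. Stromal markers were lower beside it, at a summed FPKM of 778 and 45.4, and their part in the result was not tested.

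**Figure D3:**
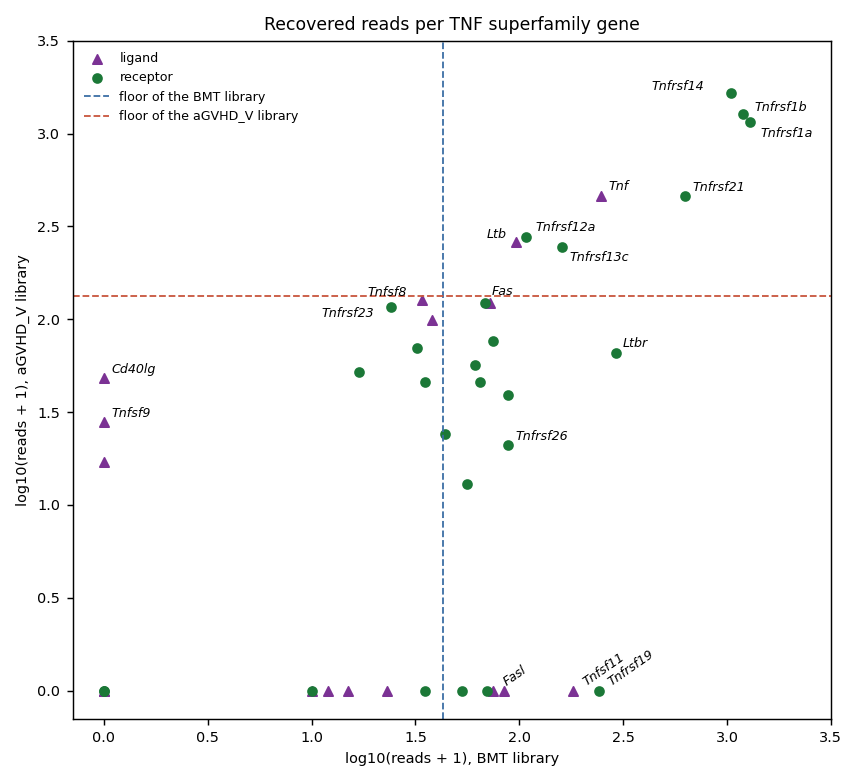
Recovered reads of each member as log10(reads + 1) in the BMT library (horizontal) and the aGVHD_V library (vertical), with ligands as triangles, receptors as circles and the floors of 42 and 132 reads as dashed lines. The 8 members beyond both floors are Tnfrsf14, Tnfrsf1a, Tnfrsf1b, Tnf, Tnfrsf21, Tnfrsf12a, Ltb and Tnfrsf13c, and Tnfsf11 and Tnfrsf19 lie on the lower edge.

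The RANK axis controls osteoclasts: RANK ligand (Tnfsf11) acts on RANK (Tnfrsf11a), and osteoprotegerin (Tnfrsf11b) is its soluble decoy. Tnfsf11 (ENSMUSG00000022015, chromosome 14, 78277445 to 78308043, minus strand) had 181 reads (FPKM 6.67) and 0. Its difference of -2.94 was the lowest of all members. Against the floor it was at least 1.21-fold lower, but the exact counting interval began at 0.847 and so included no difference. Tnfrsf11a had no reads in either library. Tnfrsf11b had 34 reads (FPKM 0.995) and 45 reads, the second being about 1 modal count. Of the axis, RANK ligand was thus the member that reached the floor, and only in BMT. Of the 10 osteoclast genes 5 were measured, with 1 lower and 2 higher. Among the unmeasured genes, Calcr, Ocstamp, Dcstamp and Oscar had no reads in either library, and Atp6v0d2 had 12 and 0. Ctsk (cathepsin K) had an FPKM of 13.7 and 0, at least 1.67-fold lower. Acp5 (tartrate-resistant acid phosphatase) was 2.75-fold higher (20.1 and 55.4, interval 1.60 to 4.66), and which cells its reads came from was not tested. Itgb3, an integrin chain shared with platelets, was 2.56-fold higher (3.34 and 8.55, interval 1.12 to 5.66), but 1.71-fold (0.752 to 3.79) under equal FPKM sums and 2.17-fold (0.950 to 4.79) with all recovered reads. Acp5 was 1.84-fold higher (1.07 to 3.12) under equal sums. Nfatc1, the transcription factor downstream of RANK, was at 2.76 and 3.61, and Mmp9, the most abundant gene of the list, at 82.2 and 97.2. Megakaryocyte and platelet markers, Itgb3 among them, summed to 89.7 and 284, of which Pf4 alone made up 28.4 and 191. Of 7 measured, 5 were at least 2-fold higher, while Ppbp was level (29.2 and 28.3) and Tubb1 was lower (8.50 and 3.14). Their part in the level of Itgb3 was not tested.

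Tnfrsf19, TROY, a receptor of mesenchymal and neural cells (chromosome 14, 60963875 to 61046490, minus strand), had 240 reads (FPKM 4.18) and 0. It was at least 1.60-fold lower against the floor, and its exact counting interval began at 1.17. Eda2r, the receptor of ectodysplasin A2, had 69 reads and 0. Ngfr, the p75 neurotrophin receptor of nerve and some stromal cells, was at 0.383 (16 reads) and 1.39 (51 reads). Tnfrsf19 was thus the only member without reads in 1 library whose counting interval excluded equal levels, and stromal marker sums were lower beside it (778 and 45.4). Their part was not tested.

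Of the death ligands, Fasl (FAS ligand, used by cytotoxic T cells and NK cells) had 74 reads (FPKM 3.15) and 0, and Tnfsf10 (TRAIL) had 83 reads (1.30) and 0. Both were at or above the floor in the BMT library but below the level of the floor in the aGVHD_V library, 6.39 and 2.35 in FPKM, so no bound is given. Tnfsf15 (TL1A) had 0 and 16 reads. T cell markers summed to 35.4 and 48.4 with all 10 carrying reads in both libraries, and the cytotoxic granule genes Nkg7 and Prf1 stood at 35.4 and 72.2 and at 0.606 and 4.83. Of the NK cell receptor genes in the same list, Klrd1 had 22 and 0 reads, Klrk1 had 50 and 31, Klrb1c had 0 and 14, and Ncr1 had none in either library; they were named after their values were seen. Fasl thus had no reads in a library with reads of all T cell markers and of part of the cytotoxic cell markers.

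Among death receptors and decoys, Fas itself was at 3.07 (67 reads) and 6.35 (122 reads), and Tnfrsf10b, the mouse TRAIL receptor, at 0.908 and 0.964 (60 and 56 reads). Tnfrsf21, death receptor 6, was the best measured of them, at 12.6 (629 reads) and 10.5 (460 reads), a ratio of 1.20 in favour of the BMT library with an interval of 0.604 to 2.63. Tnfrsf25, the receptor of TL1A, was at 1.12 and 2.84 (31 and 69 reads). The receptors Tnfrsf22, Tnfrsf23 and Tnfrsf26, which lie within 78214 bases of chromosome 7, differed in direction: Tnfrsf26 was at 2.23 and 0.583 (87 and 20 reads), Tnfrsf22 at 0.665 and 0 (34 and 0 reads) and Tnfrsf23 at 0.479 and 2.75 (23 and 116 reads). Transcripts of Tnfrsf22 and Tnfrsf23 share 17.3% of the 50-base stretches of Tnfrsf22 in GENCODE M21, so reads could have been divided between them and their opposite directions are uncertain. All 3 genes were under the floor of the aGVHD_V library.

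Of the BAFF, APRIL and TWEAK group, the receptor Tnfrsf12a (Fn14, the receptor of TWEAK, induced in injured tissue) was at 4.57 (107 reads) and 13.4 (277 reads), 2.94-fold higher with an interval of 0.855 to 9.73. Its ligand Tnfsf12 (TWEAK) had 22 and 0 reads, and Tnfsf13 (APRIL) 11 and 0. The gene Tnfsfm13, which overlaps both and was listed at 0, shares 46.8% of the stretches of Tnfsf12 and 57.3% of those of Tnfsf13, so the reads of both ligands are uncertain. Tnfsf13b, BAFF, the survival factor of B cells, was at 0.852 (71 reads) and 1.65 (121 reads).

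The receptors of BAFF and APRIL are carried by B cells and plasma cells. Tnfrsf13c, the BAFF receptor of B cells, was at 6.44 (160 reads) and 11.2 (245 reads), a ratio of 1.74 with an interval of 0.510 to 5.20. Tnfrsf13b, TACI, was at 2.53 and 1.26 (87 and 38 reads), and Tnfrsf17, BCMA of plasma cells, had no reads in either library. Over the same libraries Cd79b, a chain of the B cell receptor, had an FPKM of 23.0 (399 reads) and 0, at least 2.66-fold lower, and 8 of 9 measured B cell markers were at least 2-fold lower. Tnfrsf13c therefore stood above the floor in the aGVHD_V library, where 7 of the 10 B cell markers had no reads.

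The costimulatory ligands Cd40lg, Tnfsf8 and Tnfsf9 were higher by 2-fold or more under aGVHD_V, all on reads under the floor. Cd40lg, the CD40 ligand of helper T cells, had 0 reads and 47 reads (FPKM 3.53), which is about 1 modal count. Tnfsf8 (CD30 ligand) had 33 and 126 reads (0.715 and 3.10), and Tnfsf9 (4-1BB ligand) 0 and 27 (1.96). Tnfsf4 (OX40 ligand, 9 and 0 reads) and Tnfsf18 (GITR ligand, 14 and 0 reads) stayed under an FPKM of 1, and Cd70 had no reads. The T cell marker Cd3d was at 0.954 and 6.77 (21 and 131 reads) beside them, whereas Lck, the most abundant T cell marker, was at 7.01 and 8.33.

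Costimulatory receptors were low in both libraries. Cd27, the CD70 receptor of lymphocytes, was at 2.62 and 3.02 (74 and 75 reads), and it overlaps Vamp1 on the opposite strand (169 and 198 reads), from which its reads cannot be told apart if strand was not used. Tnfrsf4 (OX40) was at 3.87 and 3.09 (64 and 45 reads), Tnfrsf9 (4-1BB) at 1.30 and 0.793 (43 and 23 reads) and Tnfrsf18 (GITR) at 2.98 and 0.739 (55 and 12 reads). Cd40, the receptor of B cells, macrophages and endothelial cells, had 52 reads (1.26) and 0. Tnfrsf8 (CD30) had 9 and 0 reads. Those at least 2-fold lower were Tnfrsf18 and Cd40, and none of the 6 was 2-fold higher or had an interval above 1.

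Set against each other as 21 ligand and receptor pairs, both partners had reads in 14 pairs for BMT and in 8 pairs for aGVHD_V, with 6 pairs shared. The 6 were Tnf with Tnfrsf1a and with Tnfrsf1b, Ltb with Ltbr, Tnfsf14 with Tnfrsf14, and Tnfsf13b with Tnfrsf13b and with Tnfrsf13c. Over all protein-coding genes, 19.2% of those with reads in BMT had none in aGVHD_V, and 2.17% the reverse. The pair counts carry this lower detection in aGVHD_V and were not compared with other gene pairs. Pairs with reads on both sides only in the aGVHD_V library were Tnfsf9 with Tnfrsf9 and Tnfsf15 with Tnfrsf25. Ltb and its receptor differed in opposite directions (5.17 and 16.1 for the ligand, 10.2 and 2.59 for the receptor), as did Cd40lg (0 and 3.53) and Cd40 (1.26 and 0). These directions are uncertain, as none of these genes had a counting interval that excluded equal levels. Cd40lg rested on about 1 modal count, and the BMT level of Cd40 was under the aGVHD_V floor, an FPKM of 3.63. For Fasl and Fas the ligand was listed at 0 in the aGVHD_V library while the receptor was at 3.07 and 6.35. No pair besides Tnf with its receptors reached the floor with both partners in both libraries.

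By position, 22 of the 43 members lie in 9 groups with gaps of at most 100000 bases. Apart from the Ltb, Tnf and Lta group, the group of Tnfsf9, Cd70 and Tnfsf14 on chromosome 17 (57105325 to 57194177) held 2 genes that were at least 2-fold higher and 1 without reads. On chromosome 6 (125232622 to 125362484), Cd27 and Tnfrsf1a lay within 2-fold while Ltbr between them was lower. On chromosome 4 (156013843 to 156028895), Tnfrsf18 was lower and Tnfrsf4 lay within 2-fold. Neighbouring members therefore did not always differ in the same direction, and in each of these groups at least 1 gene was under the floor.

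Most genes that pass on the signal lay within 2-fold. Of 27 adapters and proximal kinases 26 were measured, of which 25 stayed inside 2-fold and 1, Ripk3, was lower (median -0.13). Over all measured genes 78.1% lay within 2-fold. By level these were 4428 of 4987 genes with a higher FPKM of 10 or more, and 4304 of 6188 with one under 10. Ripk3, a kinase of necroptosis, was at 12.4 and 5.69 (346 and 139 reads), 2.19-fold lower with an interval of 0.683 to 10.7. Birc3 (cIAP2, an NF-kB target) was at 7.77 and 3.89, Traf1 at 1.15 and 0.138 (123 and 13 reads) and Traf5 at 0.325 and 1.62 (18 and 79 reads). The plain FPKM ratios of Traf1 (8.32), Traf5 (4.99) and Fadd (2.16) exceeded 2, and only the pseudocount kept them inside 2-fold. Their counting intervals included no difference. Rbck1 (HOIL-1, of the linear ubiquitin complex) was the most abundant at 40.2 and 35.1. The size of these differences is shown beside those of the members in the plot of differences by list.

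**Figure D4:**
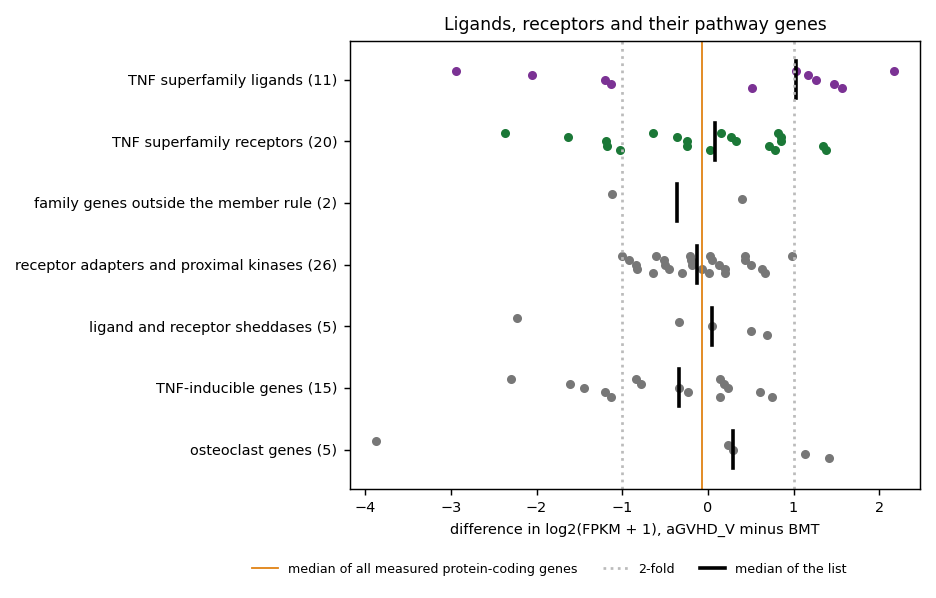
Difference in log2(FPKM + 1), aGVHD_V minus BMT, of each measured gene (points) for the ligands, the receptors and 5 pathway lists (number measured in brackets), with the median of each list (black bar), dotted lines at 2-fold and the median of all measured protein-coding genes (-0.07, orange). Of 11 ligands 1 lies within 2-fold as plotted, or 7 when genes without reads are set at the floor, and 25 of 26 adapters lie within 2-fold.

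The proteases that release ligands and receptors were present in both libraries. Adam10 was at 45.5 and 74.0 (2711 and 3878 reads), 1.63-fold higher with an interval of 1.25 to 2.10, but 1.09 (0.837 to 1.41) under equal FPKM sums. Adam17, the TNF converting enzyme, was at 12.8 and 9.95. Rhbdf2 (iRhom2), the partner of ADAM17 in blood cells, stood at 12.3 and 17.9. Its relative Rhbdf1 had 243 reads (3.69) and 0, at least 1.62-fold lower. Of this list of 5 genes 4 lay within 2-fold, with a median of 0.05 that became -0.51 under equal FPKM sums, -0.17 with all recovered reads and -0.034 without hemoglobin, mitochondrial and ribosomal protein genes in the library sizes.

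Of the genes that TNF can induce, 15 were measured: 5 were at least 2-fold lower, 10 within 2-fold and none 2-fold higher, at a median of -0.34. Over all measured protein-coding genes 16.3% were lower, 78.1% within 2-fold and 5.59% higher, which is the background for each pathway list. Vcam1, an adhesion molecule and also a stromal marker, was 3.22-fold lower (38.4 and 11.9, interval 2.15 to 5.03). Csf1, the growth factor of macrophages, was 2.99-fold lower (20.3 and 6.80, interval 1.49 to 6.85). Il6 had 115 and 0 reads, and the chemokine Cxcl1 was at 10.5 and 4.00 (238 and 80 reads). The chemokine Ccl2 was at 14.8 and 6.18 (204 and 75 reads). The counting intervals of Il6 (from 0.493), Cxcl1 (0.590 to 27.2) and Ccl2 (0.507 to 28.2) included no difference. Of the lower genes, only Vcam1 and Csf1 thus had intervals that excluded it. Nfkbia, the feedback inhibitor of NF-kB and the most abundant of the list, was 1.52-fold higher (163 and 248, interval 1.19 to 1.94), but the fold was 1.02 (0.795 to 1.30) under equal FPKM sums. Stromal marker sums were lower beside these genes (778 and 45.4), and their part was not tested.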

How the data were processed

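RNA sequencing values of 2 libraries (1 BMT, 1 aGVHD_V) were used. Although the series is titled single-cell, the table holds 1 value per gene and library. The deposited values are FPKM, as named in the table's header, beside other gene columns such as the deposited gene length in bases. Aligner, counter and use of strand: not given in the sources used here, but edgeR 3.18.1 and the builds GRCm38 and mm10 appear in the submitters' processing notes. The table has 1 more value column, which fits none of the sample labels and entered no step. All 43 members were found in GENCODE M21, 42 of them at the same position.

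FPKM multiplied by gene length were whole multiples of 1 step per library (100% of values above 0 at a tolerance of 0.05), which gave the reads. The library sizes behind these steps, 12127105 and 10661688, differ from the summed reads. The modal read number is the peak of a moving window of 7 over read numbers of 4 or more. Counting intervals of folds are exact conditional binomial (Clopper-Pearson) at 95%. Intervals of medians are 95% order-statistic intervals over genes, and carry neither counting error nor variation between mice. Read recovery, differences and intervals were checked on simulated data. The simulated reads were drawn in units of the modal read number, so this could not check the division by that number. Smaller read numbers did occur, such as 12 reads of Tnfrsf18 in the aGVHD_V library. Every measured member is given, with, from each pathway list, up to 4 genes of largest absolute difference and the gene of highest mean FPKM. Ccl2, Fadd and the unmeasured osteoclast genes were named in addition, after their values were seen. From marker lists the gene of largest difference or of highest mean FPKM is given where a result touches it, besides Ptprc, Tfrc, Cxcl12 and Lepr. Alternatives covered pseudocount, scaling, filters and the floor. Members and lists were chosen with earlier results of these data known. Python 3.11.15, numpy 2.4.6, scipy 1.17.1 and pandas 2.3.3 were used.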

Additional observations from a re-analysis of the deposited data

How the results depend on the processing

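With 1 library per group no replicate could be left out, and the depth limits most members: 8 of 43 reached the floor in both libraries. No paired analysis was possible because each group has 1 library. Of the 17 members outside 2-fold 5 had a difference of 0 with genes without reads at the floor. None took the opposite sign under the 11 alternatives, but none of these settings could have produced one. Pseudocounts and filters keep the sign, the floor setting stops at 0, and the largest rescaling, by 0.670, is smaller than 2-fold. The count of members at least 2-fold lower (9 of 31) was 1 of 31 with a pseudocount of 5, 15 of 37 with equal FPKM sums, 2 of 11 with an FPKM minimum of 5, 3 of 9 when 10 times the modal read number was required and 3 of 31 with genes without reads at the floor. Over all genes the lower share was 3.20%, 35.9%, 9.38%, 11.7% and 7.77% under these. The count of higher members (8) was 1, 5, 3 and 1 under the first 4, where all genes had 1.40%, 3.43%, 4.89% and 2.28%. With a pseudocount of 0.1 it rose to 11 of 31 (all genes 8.19%), and 9 were lower (all genes 20.8%). The median of the members (0.27) was -0.55 with equal sums and -0.027 with library sizes of all recovered reads. It kept its sign under the other scalings. The ligand median (1.03) was -0.42 with equal sums and -0.95 over the 2 ligands left at 10 times the modal number, and the receptor median (0.09) was -0.55 with equal sums, -0.14 with all recovered reads and -0.11 without a filter. Over all genes the median was -0.67 with equal sums, -0.29 with all recovered reads and -0.14 without a filter. Equal sums multiply the ratio of the libraries by 0.670 and also raise all values against the pseudocount and the filter. Erythroid genes, higher in the aGVHD_V library, enter these sums, and their part was not tested. Stricter minimums leave fewer genes. The cause was not tested further. The median of the adapters (-0.13) was -0.75 and that of osteoclast genes (0.29) -0.25 with equal sums. The sheddase median (0.05) was -0.51 with equal sums, -0.17 with all recovered reads and -0.034 when hemoglobin, mitochondrial and ribosomal protein genes were left out of library sizes. The median of Eda and Relt (-0.36) was -1.62 and 0.0050 with pseudocounts of 0.1 and 5, -1.77 with equal sums (Edar included), 0.40 with either stricter minimum, which left Relt alone, and 0.20 with genes without reads at the floor.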

Other observations

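Members of the family outside the naming rule were looked at as well. Relt, a receptor abundant in blood cells, was at an FPKM of 12.3 (491 reads) and 16.6 (579 reads) in BMT and aGVHD_V, a ratio of 1.34 with a counting interval of 0.654 to 2.59. Eda (ectodysplasin, the ligand of skin appendages) had 97 and 0 reads, and its receptor Edar 36 and 0. Relt thus reached the floor in both libraries, whereas the ectodysplasin genes, like Eda2r, had reads in BMT alone. The counting intervals of Eda, Edar and Eda2r began at 0.398, 0.0875 and 0.251, so equal levels were not excluded. Over all protein-coding genes, 19.2% of those with reads in BMT had none in aGVHD_V.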
